A study of Mus musculus with 6 samples.

Results

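Before birth the lung is filled with a liquid that its own epithelium secretes. Chloride enters the epithelial cell from the tissue side through a sodium-potassium-chloride cotransporter, a step powered by the sodium pump, and leaves into the lumen through chloride channels, while sodium and water follow. Water itself crosses membranes through aquaporins, and around birth the epithelium turns to sodium absorption. The genes described here are 7 of the 14162 genes measured in every library, chosen by name and all found in the tables. They are the chloride channel genes Ano1 and Cftr, the cotransporter gene Slc12a2, the aquaporin genes Aqp1, Aqp4 and Aqp5, and Atp1b1, which encodes a beta subunit of the sodium pump.

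Expression was measured by RNA sequencing of whole mouse lungs at embryonic day E12.5. There were 3 libraries from ShhCre-Dnmt1KO mice, called Dnmt1KO below, in which Cre recombinase made from the Shh locus was used to remove Dnmt1, the gene of the enzyme that copies DNA methylation onto new strands. Another 3 libraries came from wild-type littermates, called WT. The Shh locus is active in the lung endoderm, so the mesenchyme, vessels and mesothelium in the same libraries lie outside the targeted lineage. Cre appears in the labels of the Dnmt1KO samples alone, so the Cre allele and the loss of Dnmt1 cannot be told apart. Nothing in them ties a library to an embryo, and the p-values therefore rest on the spread between these samples. How much of that spread is technical cannot be told from the labels.

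The libraries held between 18192629 and 25597662 reads over the measured genes. Dnmt1 itself stood in Dnmt1KO at 80.7% of its WT level, with no overlap between the groups (limma adjusted p = 0.507). All 10 lung epithelial transcription factors on a fixed list were measured, among them the lineage factor Nkx2-1. It had 2586, 2252 and 3601 reads in Dnmt1KO lungs and 4215, 3807 and 3937 in WT lungs. After scaling its groups overlapped, at log2 levels of 13.82, 13.48 and 14.09 in Dnmt1KO and 14.04, 14.23 and 14.08 in WT. The log2 fold change of Nkx2-1 was -0.32 ± 0.15 (SE), and it did not pass limma's test. Over 4 genes of the Y chromosome, 3 reads were found in Dnmt1KO replicate 1, while all other libraries had at least 4155, so the sexes were unevenly spread. Across all 14162 genes limma called 40 genes (0.282%) higher and 1 gene (0.00706%) lower in Dnmt1KO at an adjusted p under 0.05. With each library scaled to its epithelial markers, 109 were called higher and 16 lower. At an unadjusted p under 0.05 in limma that scaling gave 385 genes, fewer than the 640 on the deposited scale. With the lowest 25% of genes left out 0 were called in either direction (308 at an unadjusted p under 0.05). With Dnmt1KO replicate 3 left out, 17 genes were called lower, and leaving out WT replicate 1 gave 3. Dropping Dnmt1KO replicate 1 brought the genes called higher to 15, and dropping either Dnmt1KO replicate 2 or WT replicate 3 brought them to 25.

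Since Dnmt1 maintains methylation at CpG sites, the promoter windows of 4 of the genes are shown with every CpG in capitals, to let their CpG content be read beside their expression. The windows are RefSeq sequence of build GRCm38.p6, 5′ to 3′ on the gene's strand, and run from 250 bases before to 50 bases after a transcript start. The table held such a window for 5 of the 7 genes.
Ano1, chr7:144738524-144738823, minus strand: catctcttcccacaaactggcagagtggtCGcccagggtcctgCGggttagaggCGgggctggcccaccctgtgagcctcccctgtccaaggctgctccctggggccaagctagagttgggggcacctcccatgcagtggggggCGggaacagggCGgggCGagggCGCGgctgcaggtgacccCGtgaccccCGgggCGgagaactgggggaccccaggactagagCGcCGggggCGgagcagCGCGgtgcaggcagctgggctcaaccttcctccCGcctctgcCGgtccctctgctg
Cftr, chr6:18170437-18170736, plus strand: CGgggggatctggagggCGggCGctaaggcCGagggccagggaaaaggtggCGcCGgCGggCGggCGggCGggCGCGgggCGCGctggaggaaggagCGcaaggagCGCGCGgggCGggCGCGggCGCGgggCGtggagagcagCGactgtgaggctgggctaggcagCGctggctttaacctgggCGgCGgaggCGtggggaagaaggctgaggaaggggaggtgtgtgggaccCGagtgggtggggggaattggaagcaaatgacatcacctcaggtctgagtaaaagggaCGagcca
Aqp1, chr6:55336049-55336348, plus strand: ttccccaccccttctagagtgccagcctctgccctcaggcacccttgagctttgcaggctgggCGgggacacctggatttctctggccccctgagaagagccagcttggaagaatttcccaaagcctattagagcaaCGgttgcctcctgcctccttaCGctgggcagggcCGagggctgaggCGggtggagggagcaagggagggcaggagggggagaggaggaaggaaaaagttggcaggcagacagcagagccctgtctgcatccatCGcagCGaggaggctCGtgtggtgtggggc
Aqp5, chr15:99590778-99591077, plus strand: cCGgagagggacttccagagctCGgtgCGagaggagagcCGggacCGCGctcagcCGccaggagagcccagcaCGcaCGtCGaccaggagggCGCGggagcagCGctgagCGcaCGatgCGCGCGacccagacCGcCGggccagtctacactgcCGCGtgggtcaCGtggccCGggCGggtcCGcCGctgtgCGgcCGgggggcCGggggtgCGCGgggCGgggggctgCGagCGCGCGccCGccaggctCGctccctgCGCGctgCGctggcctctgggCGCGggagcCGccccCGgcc

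These windows differed widely in CpG content. The Aqp1 window held 8 CpG sites, more than in 14.4% of the 10826 measured genes with a window, whose median was 20. The Ano1 window held 18, most of them in the part nearer the start, with an observed-to-expected CpG ratio of 0.47 against a median of 0.753. The Cftr window held 31 CpG sites, as did that of Atp1b1, and the Aqp5 window held 46, more than in 96.9% of the measured genes. In none of the 5 windows did the letters TGTTTAC, the core of the FOXA motif, or GACCACCCA, a site of the Hedgehog factors GLI, occur on either strand. The share of measured genes whose windows held them was 2.42% and 0.194%.

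Of the apical chloride channel genes, Ano1 was separated between the groups and Cftr was not, and neither passed the test over all genes. Ano1 encodes a calcium-activated chloride channel, also called TMEM16A, which is made by airway epithelium and by smooth muscle. It had 496, 616 and 756 reads in Dnmt1KO replicates 1, 2 and 3, against 1204, 1164 and 1236 reads in WT replicates 1, 2 and 3. On the deposited log2 scale it averaged 11.63 ± 0.20 in Dnmt1KO and 12.39 ± 0.15 in WT lungs (SD, n = 3 each). The 2 groups did not overlap. Dnmt1KO lungs had 59.0% of the WT level, and the log2 fold change was -0.76 ± 0.13 (SE, 95% interval -1.05 to -0.47). Ano1 ranked 55 by p among all genes, short of the threshold in limma (adjusted p = 0.0649). By exact permutation, two-sided, p was 0.1, and groups of 3 can give no smaller value. Ano1 passed without Dnmt1KO replicate 3, the Dnmt1KO library with the most Ano1 reads (adjusted p = 0.0314), and with sample weights (0.014), in a range of 0.014 to 0.358 over 15 alternatives.

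Cftr did not show such a separation. It encodes the cAMP-regulated chloride and bicarbonate channel that is defective in cystic fibrosis. There were 249, 191 and 448 Cftr reads in Dnmt1KO lungs, against 334, 383 and 440 in WT lungs. Dnmt1KO replicate 2 was the lowest of all 6 libraries and Dnmt1KO replicate 3 the highest, so that the Dnmt1KO libraries enclosed the WT libraries. The log2 fold change was -0.26 ± 0.28 (SE, 95% interval -0.91 to 0.39, limma adjusted p = 1), and without Dnmt1KO replicate 2 it was 0.021. Within a library, the ratio of Ano1 to Cftr in reads per kilobase of exon was 2.48, 4.01 and 2.10 in Dnmt1KO and 4.48, 3.78 and 3.49 in WT. This ratio overlapped between the groups (exact permutation p = 0.3, adjusted p = 0.3 over the 3 pairs of genes compared). With 3 libraries a group this test can give no p under 0.1, so it cannot decide whether the 2 channels differed in response.

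Slc12a2, which brings in the chloride that the apical channels release, had the smallest standard error of the 7 genes. Its cotransporter, NKCC1, sits on the tissue side of secretory cells. It had 2751, 2567 and 3005 reads in Dnmt1KO lungs, against 3366, 2720 and 3077 in WT lungs. After scaling, the 3 WT libraries lay within 0.031 of each other on the log2 scale and the Dnmt1KO libraries within 0.24, on either side of them. The log2 fold change was 0.070 ± 0.084 (SE, limma adjusted p = 1), and its 95% interval of -0.12 to 0.26 leaves out a change of the size seen for Ano1.

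Atp1b1 encodes a beta subunit that carries the catalytic alpha subunit of the sodium pump to the membrane. It varied widely among the Dnmt1KO libraries, with 307, 745 and 485 reads, against 580, 446 and 402 in WT. Dnmt1KO replicate 1 was the lowest and Dnmt1KO replicate 2 the highest of the 6, and the groups overlapped. The log2 fold change was 0.24 ± 0.26 (SE, 95% interval -0.36 to 0.84, limma adjusted p = 1), moving to -0.066 when Dnmt1KO replicate 2 was left out and to 0.50 when Dnmt1KO replicate 1 was. In the GRCm38 annotation 575 exon bases of Atp1b1 also lie in exons of Nme7 on the other strand, and whether reads were counted by strand is not given in the sources used here, so reads of the overlap cannot be told apart.

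**Figure D1:**
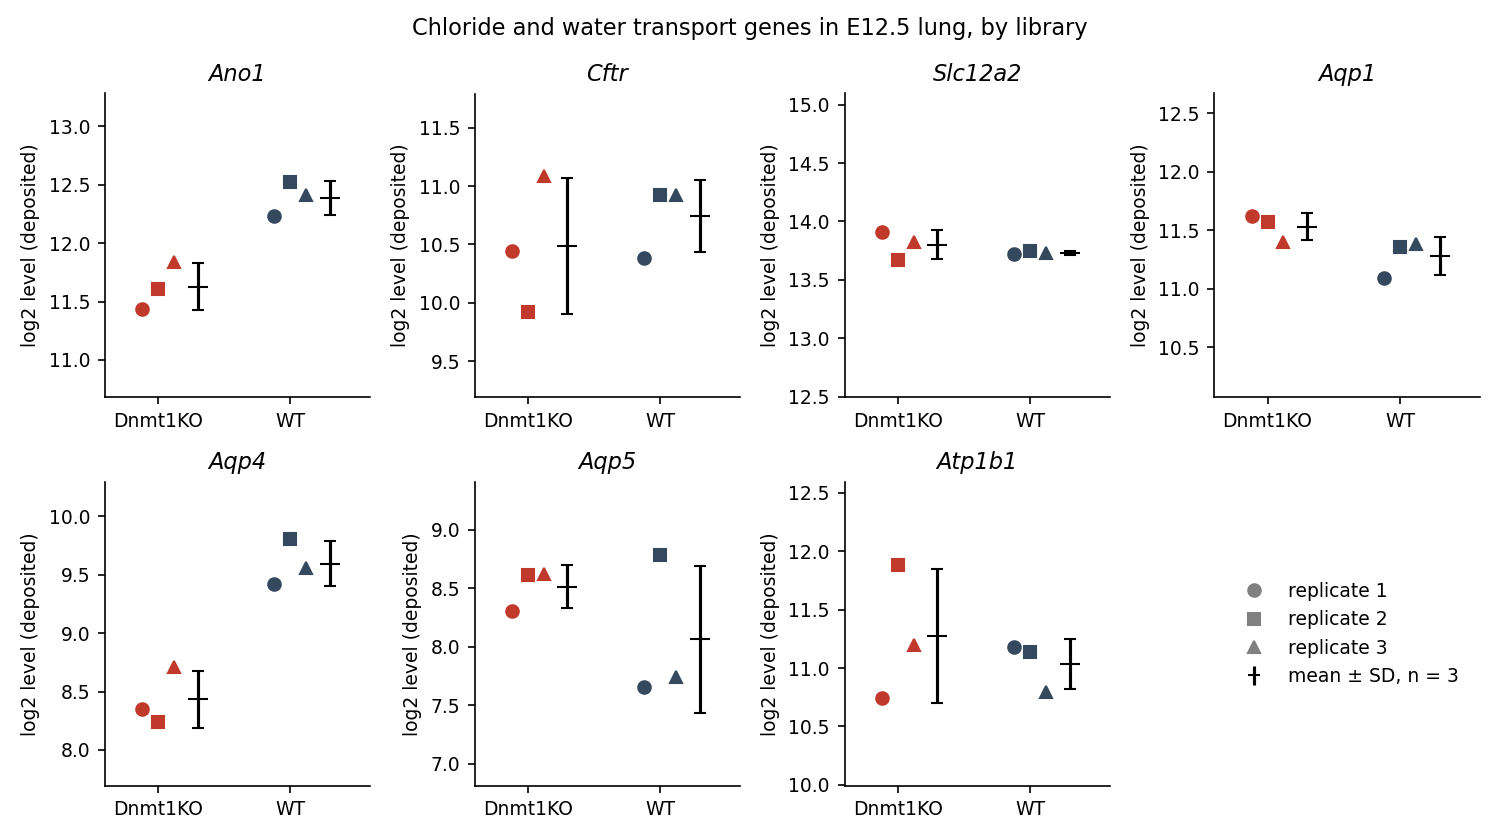
Deposited log2 levels of the 7 genes in each of the 3 Dnmt1KO (left, red) and 3 WT (right, blue) libraries, with symbols for the replicate number and bars for the mean ± SD (n = 3); every panel spans the same log2 range. For Ano1 and Aqp4 all Dnmt1KO points lie below all WT points, for Aqp1 they lie above, and for the other 4 genes the groups overlap.

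The aquaporin genes differed from each other in direction, and none passed the test. Aqp4 encodes a water channel known from the basolateral membrane of airway epithelial cells and from brain glia. It had 58, 59 and 86 reads in Dnmt1KO lungs and 171, 176 and 171 in WT lungs. Its log2 level was 8.43 ± 0.25 in Dnmt1KO and 9.59 ± 0.19 in WT lungs (SD, n = 3 each). All Dnmt1KO libraries lay below all WT libraries, and Dnmt1KO lungs had 44.7% of the WT level, the largest difference among the 7 genes. The log2 fold change of -1.16 ± 0.20 (SE, 95% interval -1.62 to -0.70) ranked 65 by p, also short of the threshold in limma (adjusted p = 0.0788), with p = 0.1 by exact permutation. It passed with sample weights (adjusted p = 0.0228), in a range of 0.0228 to 0.421 over the 14 alternatives that kept the gene.

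Aqp1, the water channel of capillary endothelium, mesothelium and red cells, had a small difference of the opposite sign. It had 564, 601 and 557 reads in Dnmt1KO lungs, against 545, 517 and 607 in WT lungs. After scaling, the Dnmt1KO libraries at 11.62, 11.57 and 11.40 lay just above the WT libraries at 11.09, 11.35 and 11.39. The gap between the lowest Dnmt1KO and the highest WT library was smaller than the spread within either group, and the log2 fold change of 0.25 ± 0.12 (SE, 95% interval -0.015 to 0.52) did not pass (limma adjusted p = 1).

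Aqp5, the apical water channel of type 1 alveolar cells and of glands, had the fewest reads of the 7 genes. It had 56, 77 and 81 reads in Dnmt1KO lungs, against 50, 87 and 48 in WT lungs. WT replicate 2 was the highest of the 6 libraries after scaling, the other 2 WT libraries were the lowest, and the Dnmt1KO libraries lay in between. The log2 fold change was 0.45 ± 0.33 (SE, 95% interval -0.29 to 1.20, limma adjusted p = 1), and it was 0.82 without WT replicate 2.

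None of the 7 genes passed the test over all genes, where 0.29% of genes passed in either direction. At an unadjusted p under 0.05 Ano1 and Aqp4 were lower and none was higher, against 1.6% of all genes lower and 2.92% higher. The groups did not overlap in 3 of the 7, with Ano1 and Aqp4 below and Aqp1 above, while 3.99% of all genes had every Dnmt1KO library below and 4.79% every Dnmt1KO library above, 8.78% together. Over the 7 genes the median log2 fold change was 0.070, against -5.9e-05 over all genes. These genes were chosen with earlier results of the same data known, so the counts describe them and give no independent support.

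**Figure D2:**
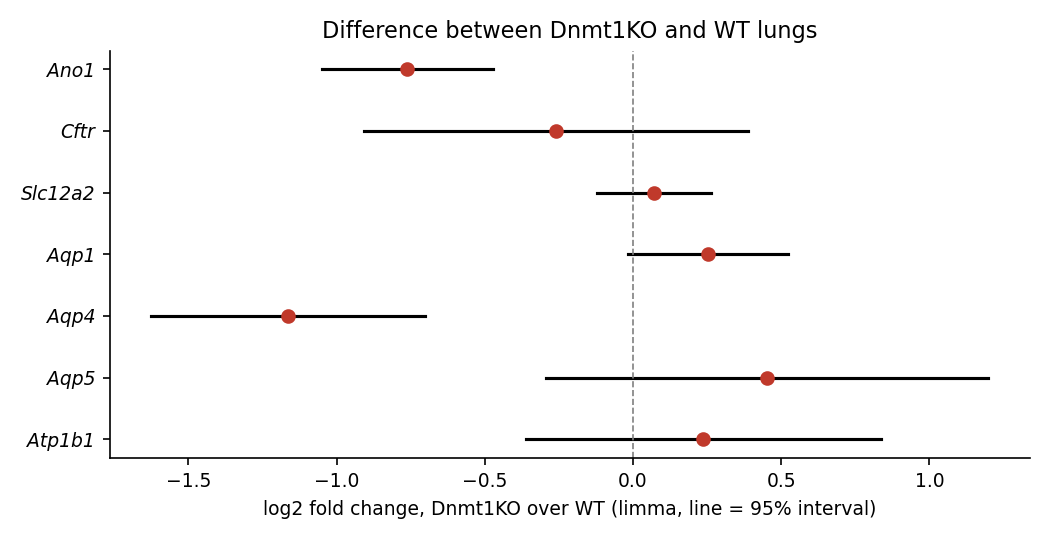
Log2 fold change of each gene, Dnmt1KO over WT, from limma over all genes (n = 3 libraries each), with 95% intervals not adjusted for the number of genes. The intervals of Ano1 (-1.05 to -0.47) and Aqp4 (-1.62 to -0.70) lie below 0 and the other 5 include 0.

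Levels of different genes were compared as reads per kilobase of exon, in RPKM, with the recovered reads of each library as its total and GENCODE exon lengths of GRCm38. Slc12a2 had the highest mean in both groups, at 12.9 ± 1.10 RPKM in Dnmt1KO and 12.1 ± 0.057 in WT lungs (SD, n = 3 each), followed by Aqp1 at 11.1 ± 0.898 in Dnmt1KO and 9.21 ± 0.978 in WT. Within every library of both groups Slc12a2 stood above Aqp1, although the ranges of these 2 genes across the Dnmt1KO libraries overlapped. Across the WT libraries they did not. In Dnmt1KO replicate 2 Atp1b1 stood above both, at 12.0 RPKM against 11.7 for Slc12a2 and 11.4 for Aqp1. Ano1 came next in WT, at 8.37 ± 0.772 RPKM, below Aqp1 and above Atp1b1 within every WT library. Its range across the WT libraries overlapped that of Aqp1. In Dnmt1KO Ano1 was at 5.01 ± 0.699 RPKM and lay below Atp1b1 in every library, Atp1b1 averaging 8.32 ± 3.35 there and 6.67 ± 0.917 in WT. Cftr, at 1.91 ± 0.770 RPKM in Dnmt1KO and 2.17 ± 0.427 in WT, was below Ano1 in every library, and overlapped Aqp5 in Dnmt1KO but not in WT. Aqp5 and Aqp4 averaged the lowest in both groups. In Dnmt1KO Aqp4, at 0.546 ± 0.0973 RPKM, was below Aqp5, at 1.38 ± 0.169, in every library, while in WT the levels overlapped, at 1.21 ± 0.151 for Aqp4 and 1.06 ± 0.492 for Aqp5.

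The make-up of each family was followed as the share that each gene took of its family's summed level per kilobase. Of 12 aquaporin genes listed, 4 were measured, and Aqp1 took most of the total, at 83.9% ± 2.25 in Dnmt1KO and 79.0% ± 3.41 in WT lungs (SD, n = 3 each). Aqp4 took 3.73%, 3.48% and 5.31% in Dnmt1KO lungs, against 10.6%, 10.8% and 9.73% in WT lungs, with no overlap (exact permutation p = 0.1, the smallest possible). The remaining measured member was Aqp11, an intracellular aquaporin, at 1.42% ± 0.283 in Dnmt1KO and 1.66% ± 0.523 in WT. Relative to Aqp5 in the same library, Aqp4 per kilobase was at 0.432, 0.32 and 0.443 in Dnmt1KO and at 1.43, 0.844 and 1.49 in WT (exact permutation p = 0.1, adjusted p = 0.15 over the 3 pairs). Relative to Aqp1 it was at 0.0433, 0.0414 and 0.0651 in Dnmt1KO and at 0.132, 0.143 and 0.119 in WT, again without overlap and with the same p-values.

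Among the anoctamins, the family of Ano1, 7 of 10 genes were measured. Ano1 took 13.0%, 14.6% and 16.9% of the family level in Dnmt1KO, against 19.8%, 25.1% and 22.1% in WT (exact permutation p = 0.1). Ano8 and Ano6, a phospholipid scramblase, were the larger members in every library. The Ano10 share was also without overlap, in the other direction, at 16.5%, 16.0% and 16.2% in Dnmt1KO against 13.5%, 11.8% and 14.3% in WT (exact permutation p = 0.1). Shares within a family depend on each other, so these are not separate results. Atp1b1 was a minor part of the measured sodium pump beta subunits, at 13.0% ± 4.84 in Dnmt1KO and 11.3% ± 1.34 in WT, while Atp1b3 took 81.0% ± 5.63 in Dnmt1KO and 84.3% ± 2.67 in WT. Slc12a2 took 24.2% ± 2.23 of the measured cation-chloride cotransporters in Dnmt1KO and 23.2% ± 2.20 in WT, behind the potassium-chloride cotransporter gene Slc12a4 at 37.2% ± 1.67 in Dnmt1KO and 38.2% ± 1.41 in WT.

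**Figure D3:**
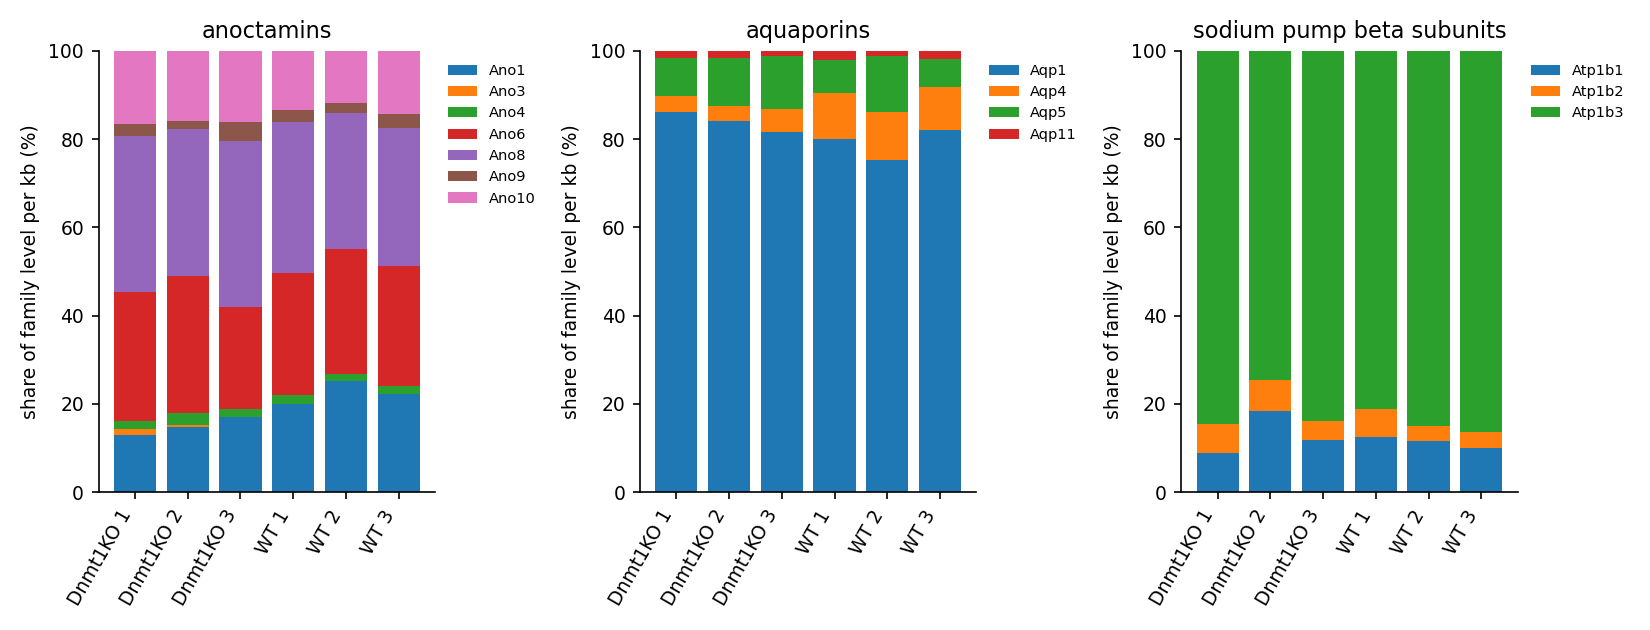
Share of the summed level per kilobase of exon taken by each measured anoctamin, aquaporin and sodium pump beta subunit gene in each library, Dnmt1KO libraries at the left of each panel. The Ano1 share lies between 13.0% and 16.9% in Dnmt1KO and between 19.8% and 25.1% in WT, and the Aqp4 share between 3.48% and 5.31% in Dnmt1KO and between 9.73% and 10.8% in WT.

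In bulk libraries fewer cells of a type and less RNA per cell cannot be told apart, so marker genes of the cells that express these channels were followed beside them. All 18 pan-epithelial markers were measured, none at 0 in any library, and none passed the test. Their summed level, in CPM from the recovered reads, ran from 744 to 1120 in Dnmt1KO and from 779 to 1006 in WT. The median log2 fold change was 0.062, with 11 positive and 7 negative. Only Esrp2 was without overlap, with every Dnmt1KO library below every WT library. Its log2 fold change was -0.53 ± 0.13 (SE; limma adjusted p = 0.306). With each library scaled to the mean of these markers, Ano1 had a log2 fold change of -0.81 (limma adjusted p = 0.133) and Aqp4 of -1.21 (0.055). On that scale Aqp4 stood at -3.37, -3.19 and -3.32 in Dnmt1KO lungs, against -2.05, -2.10 and -2.12 in WT lungs. Ano1 stood at -0.29, 0.18 and -0.19 in Dnmt1KO, against 0.77, 0.63 and 0.73 in WT. Both sets of values were without overlap, while those of the other 5 genes overlapped, Aqp1 included.

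**Figure D4:**
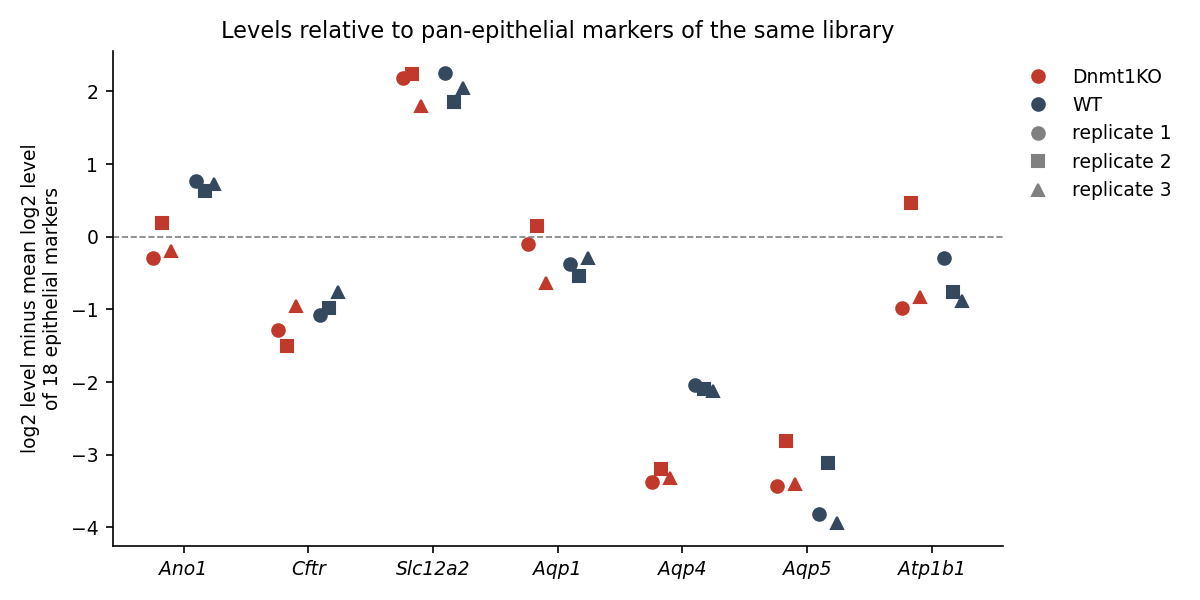
Log2 level of each gene minus the mean log2 level of 18 pan-epithelial markers in the same library, Dnmt1KO (red) left of WT (blue), with symbols for the replicate number. Aqp4 lies between -3.37 and -3.19 in Dnmt1KO and between -2.12 and -2.05 in WT, Ano1 is also separated, and the other 5 genes overlap.

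Most of the lung epithelial transcription factors had differences of the same sign as Ano1 and Aqp4. Of the 10, 7 had a negative log2 fold change, the median was -0.36, and their summed level ran from 663 to 825 CPM in Dnmt1KO and from 776 to 881 in WT. Foxa1, a pioneer factor of endoderm, had 318, 355 and 884 reads in Dnmt1KO lungs, against 1576, 1498 and 1513 in WT lungs. Irx1, a homeobox factor, had 614, 662 and 932 reads in Dnmt1KO lungs, against 1840, 1683 and 1380 in WT lungs. Neither passed limma's test (adjusted p = 0.223 and 0.0589), nor did Id2, a factor of the distal tips, with 2967, 2799 and 2774 reads in Dnmt1KO lungs, against 2381, 1916 and 2420 in WT lungs (0.0879). In Foxa1, Irx1, Ano1 and Aqp4 alike, Dnmt1KO replicate 3 was the Dnmt1KO library nearest to WT on the deposited scale. This order was not particular to these genes. Over all genes, the first principal component, the main axis of variation (42.8% of the variance), also placed that library nearest to WT. It lay at -17.5, against -33.6 and -26.7 for Dnmt1KO replicates 1 and 2, and 12.9 to 37.2 in WT. Dnmt1KO replicate 3 also had the highest mean log2 level of the pan-epithelial markers, at 12.03. Relative to the pan-epithelial markers, Dnmt1KO replicate 2 was instead nearest to WT for Ano1 (0.18) and Aqp4 (-3.19). Smooth muscle markers, of cells that also make Ano1, were all measured, none at 0. Their summed levels ran from 415 to 564 CPM in Dnmt1KO and from 321 to 797 in WT. The median log2 fold change of these markers was -0.23, with 5 negative and 2 positive. Markers of neural crest and glia were measured for 7 of 8 genes, none at 0. They summed to between 32.4 and 72.1 in Dnmt1KO and to between 27.4 and 110.2 in WT. Here the median log2 fold change was -0.061, with 6 negative and 1 positive. The part of these cells in the lower Ano1 and Aqp4 levels was not tested.

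For Aqp1 the relevant markers were those of vessels, mesothelium and red cells. The 12 endothelial markers, all measured and none at 0, summed to between 718 and 929 CPM in Dnmt1KO and to between 576 and 904 in WT, with a median log2 fold change of 0.031. The mesothelial markers, 8 of 9 measured and none at 0, summed to between 422 and 651 in Dnmt1KO and to between 410.0 and 595 in WT. Their median log2 fold change was 0.069, with 6 positive and 2 negative. Upk1b, 1 of them, had 303, 550 and 427 reads in Dnmt1KO lungs, against 372, 241 and 320 in WT lungs (limma adjusted p = 0.525). All 14 measured erythroid markers of 15, none at 0, had a positive log2 fold change with a median of 0.51, and summed to between 2054 and 3598 in Dnmt1KO and to between 1518 and 2193 in WT, none passing the test. The part of red cells in the Aqp1 values was not tested.

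The wider machinery of ion transport was followed in 7 fixed lists of 113 genes, of which 80 were measured. None of the 80 passed limma's test over all genes, and 9 had an unadjusted p under 0.05, which is 11.3% of them against 4.52% of all genes in either direction. Of these 9, 7 were higher and 2 lower in Dnmt1KO. Among the 7 were Ano3, Fxyd3 and Car4, with only 97, 99 and 145 reads over the 6 libraries. The lists were chosen with earlier results of the same data known, so these shares describe them and give no independent support. Over the 80 genes the median log2 fold change was 0.030, and for 68 of the 80 the difference lay within 0.5 of 0 on the log2 scale.

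Other chloride channels and transporters numbered 32 measured genes of 44, with 17 positive and 15 negative log2 fold changes and a median of 0.022. Slc26a9, an epithelial chloride transporter that works with Cftr, had 151, 117 and 125 reads in Dnmt1KO lungs, against 104, 91 and 107 in WT lungs. All Dnmt1KO libraries were above all WT libraries after scaling, and the log2 fold change was 0.58 ± 0.20 (SE; limma adjusted p = 0.747). Ano3, known from neurons, had 54, 29 and 4 reads in Dnmt1KO lungs, against 6, 0 and 4 in WT lungs, so Dnmt1KO replicate 3 was within the WT range and the others above it (adjusted p = 0.891). Clcn3, an endosomal chloride-proton exchanger, had a log2 fold change of 0.20 ± 0.10 (adjusted p = 1).

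Of 10 measured sodium pump subunits and regulators other than Atp1b1, 8 had a positive log2 fold change, with a median of 0.14. The small FXYD proteins bind the pump and tune it. Fxyd1 had 263, 366 and 360 reads in Dnmt1KO lungs, against 293, 279 and 299 in WT lungs, and Fxyd3 had 16, 23 and 25 in Dnmt1KO lungs, against 9, 14 and 12 in WT lungs. In both genes all Dnmt1KO libraries lay above all WT libraries after scaling, at log2 fold changes of 0.37 ± 0.14 and 1.05 ± 0.41 (limma adjusted p = 0.858 and 0.966).

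The genes of sodium absorption, the pathway of the newborn lung, were 7 measured of 8, with 5 negative log2 fold changes and a median of -0.041. Scnn1a, the alpha subunit of the epithelial sodium channel, had 75, 59 and 74 reads in Dnmt1KO lungs, against 83, 67 and 76 in WT lungs, and the log2 fold change was 0.085 ± 0.21 (SE; limma adjusted p = 1). Tmprss2, a membrane serine protease of epithelia, had 143, 238 and 281 reads in Dnmt1KO lungs, against 405, 334 and 414 in WT lungs. All Dnmt1KO libraries lay below all WT libraries, at a log2 fold change of -0.64 ± 0.20 (adjusted p = 0.607). Prss8, which activates the sodium channel, was at -0.35 ± 0.20 (adjusted p = 1).

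Bicarbonate and proton exchange was covered by 11 measured genes of 13, with a median of 0.21. Car4, a membrane carbonic anhydrase of lung capillaries, had 47, 59 and 16 reads in Dnmt1KO lungs, against 15, 5 and 3 in WT lungs, with all Dnmt1KO libraries above all WT libraries after scaling. Its log2 fold change of 2.64 ± 0.68 (SE) did not pass (limma adjusted p = 0.376). Slc4a5 was at 0.32 ± 0.25, and Slc4a1, the anion exchanger of red cells, had 1554, 1187 and 3105 reads in Dnmt1KO lungs, against 1479, 879 and 1851 in WT lungs (adjusted p = 1 for each).

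Potassium channels of secretory epithelia, measured for 7 of 9, had a median of 0.058, with Kcnn4 at 0.92 ± 0.54, Kcnj15 at 0.77 ± 0.41 and Kcnk5 at -0.25 ± 0.12 (SE, limma adjusted p = 1 for each). Kinases, receptors and scaffolds of chloride secretion, measured for 12 of 16, had a median of -0.013. Wnk2, of a kinase family that regulates the cotransporter, was at a log2 fold change of -0.31 ± 0.13 (SE), and Stk39, the kinase that phosphorylates it, at 0.14 ± 0.09 (limma adjusted p = 1 for both).

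**Figure D5:**
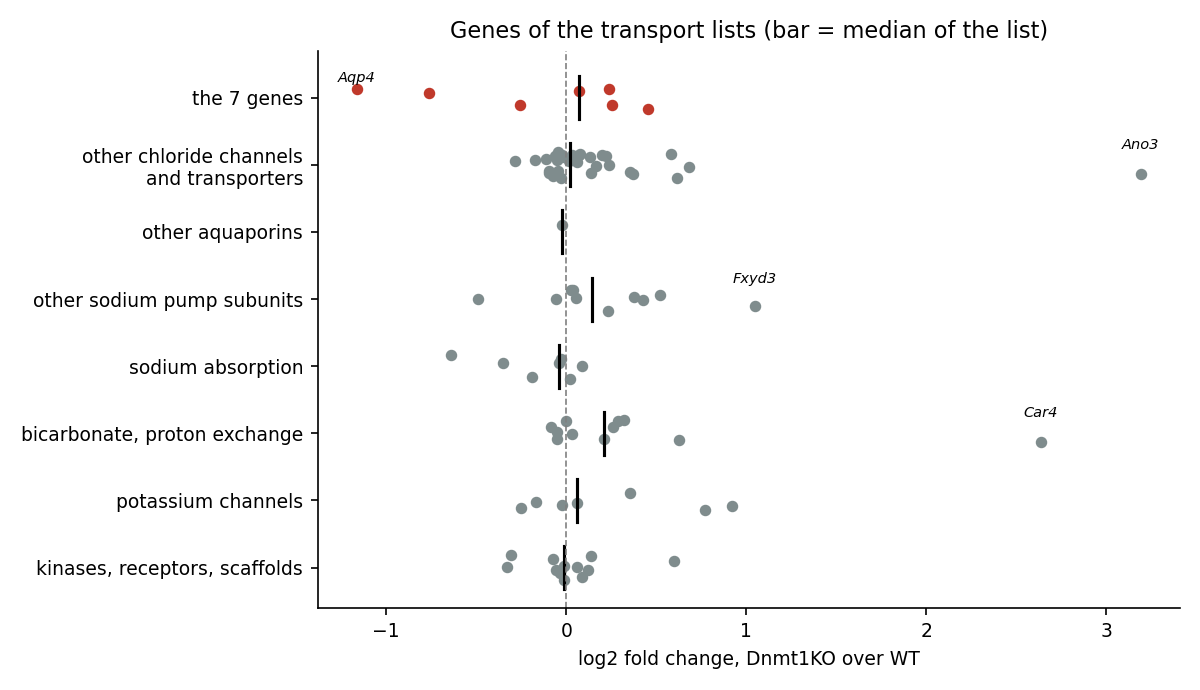
Log2 fold change, Dnmt1KO over WT, of the 7 genes (red) and of the 80 measured genes of 7 further transport lists (grey), with the median of each list as a bar and genes beyond 1 named. Aqp4 and Ano1 are the lowest of all the points shown, at -1.16 and -0.76, and the medians of the lists run from -0.041 to 0.21.

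The genes with the profile most like each of the 7 were found by the root mean square difference of log2 levels over the 6 libraries, each gene centred on its own mean. Ano1 had H2-Q1 among its nearest at 0.115, against a spread of Ano1 about its own mean of 0.407. Aqp4 was nearest to Ablim3 at 0.101 and Irx1 at 0.16, against a spread of 0.609. Nearest to Cftr were Klc3 (0.0702) and Bnipl (0.078), to Slc12a2 Yes1 (0.0182) and Fpgs (0.019), and to Aqp1 Gsdmd (0.0338) and Depdc7 (0.0542). Nearest to Aqp5 were Ly86 (0.132) and Coa4 (0.138), and to Atp1b1 C1qtnf4 (0.0735) and Arhgap22 (0.0994). Each list is the closest among all genes over only 6 libraries, so it describes these values and nothing more.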

How the data were processed

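Each library had 1 deposited table of Ensembl identifiers with a SIGNAL column, per the file headers. STAR, limma and mm9 are named, without roles or versions, per the submitters' processing notes. How reads were counted, by strand or not, filtered and scaled is not given in the sources used here. These log2 values of the authors ranged from 1 to 18.4. Raising 2 to each value gave a whole number of reads plus 0.5, times a constant of the library, within 1e-06 reads for 100% of genes. At few reads that offset shapes the fold change. Recovered totals ranged from 18192629 to 25597662 reads, and 60 reads was the lowest gene total, so genes below it were not analysed here.

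Symbols and exon lengths came from GENCODE M21 (GRCm38) for 13967 identifiers. All genes were fitted in limma 3.58.1 (R 4.3.3) with genotype as the only term and trended, robust moderation, and Benjamini-Hochberg adjustment over all genes. The fit was tested on simulated data, with the outcome not reported here. Named genes were Dnmt1, the 7 genes, up to 3 genes by p from each list, and the 2 nearest profiles. Gene models were passed over for the last, not every marker is named, and some genes that the rule names are not reported here. The genes and lists were chosen with earlier results of these data known. Permutation tests were exact and two-sided. For promoter counts the first listed window of a gene was used.

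Alternatives included a replicate block, removal of the lowest 25% of genes, quantile, median and epithelial scaling, plain moderation, sample weights and leaving out each library. Scaling to library totals and voom with the deposited scaling constants were added after seeing the data.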

Additional observations from a re-analysis of the deposited data

How the results depend on the processing

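Over all genes limma called 1 gene lower and 40 higher. The counts were 0 lower and 26 higher with the replicate number as a block (771 genes at an unadjusted p under 0.05). They were 0 and 0 with the lowest 25% of genes left out (308), and 16 and 109 with scaling to epithelial markers (385). With sample weights 12 were called lower (1089), and without trend or robust estimation 0 (706). Leaving out single libraries gave from 0 to 17 lower and from 15 to 42 higher (517 to 811 at an unadjusted p under 0.05), and voom on the recovered reads gave 1 lower and 31 higher. Of the 7 genes, Ano1 passed with sample weights at -0.80 and without Dnmt1KO replicate 3 at -0.87, and its log2 fold change lay between -0.87 and -0.67 when any 1 library was dropped. Aqp4 passed with sample weights at -1.24 and ran from -1.30 to -1.06. Without Dnmt1KO replicate 1, the library nearly without Y-chromosome reads, Ano1 was at -0.67 and Aqp4 at -1.12. Cftr ran from -0.56 to 0.021 and Atp1b1 from -0.066 to 0.50, each turning sign without Dnmt1KO replicate 2. Slc12a2 ran from 0.017 to 0.14, Aqp1 from 0.16 to 0.32 and Aqp5 from 0.25 to 0.82. Under the other alternatives, which left every direction as it was, Cftr reached -0.54 and Atp1b1 0.49 with sample weights. No other call on the 7 genes changed. Leaving out the lowest 25% of genes removed Aqp4 and Aqp5, which gives no value for them. The cause of these changes was not tested, other than the removed genes and libraries themselves.

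Same-numbered libraries had deviations from their group means that correlated over genes at -0.0027, -0.18 and 0.31. For differently numbered libraries the values ran from -0.37 to 0.38, so whether the numbers pair the samples cannot be told from them. With the block Ano1 had an adjusted p of 0.0532 and Aqp4 of 0.152 in limma. Voom with TMM factors was not run. Depth limits Aqp4 and Aqp5 most, with 721 and 399 reads over the 6 libraries.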

Other observations

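A list of tracheal and bronchial cartilage genes, measured for 4 of 6, was taken as a further marker set of the airway wall, since loss of Ano1 in mice is known to disturb tracheal cartilage. Col2a1, the main collagen of cartilage, had 2804, 2119 and 3296 reads in Dnmt1KO lungs and 5595, 2891 and 2698 in WT lungs, and the groups overlapped (limma adjusted p = 1). Matn4, a matrilin of the same matrix, also overlapped, with 969, 496 and 1008 reads in Dnmt1KO lungs and 1429, 652 and 613 in WT lungs. Matn1, a cartilage matrilin, had 42, 26 and 10 reads in Dnmt1KO lungs and 0, 1 and 2 in WT lungs, with every Dnmt1KO library above every WT library, and did not pass (adjusted p = 0.155). The summed level of the list ran from 146 to 231 CPM in Dnmt1KO and from 160 to 326 in WT.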
